A study of Homo sapiens with 2 samples.

Results

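The Notch pathway genes and stem-like transcription factors described here are 10 genes of 55773 gene symbols in the deposited tables. They were taken by symbol as NOTCH1, NOTCH2, NOTCH3, JAG1, JAG2, HES1, HEY1, SOX2, KLF4 and KLF5, among annotated genes, and where a symbol had several rows these were added up. RNA was sequenced from NCI-H2030, an established line of human lung adenocarcinoma cells, in 2 libraries. The AS library came from cells that received miR-494-3p AS, and the SC library from cells that received SC. The labels spell out neither abbreviation, and they give no dose or time. The series title links miR-494-3p, a microRNA, to regulation of SET/I2PP2A. Each group had 1 library, so there was no replicate check, no error and no test, and each difference describes these libraries alone.

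Notch receptors sit in the membrane and are switched on by ligands of the Jagged and Delta families on a neighbouring cell. Binding lets ADAM proteases and then the gamma-secretase complex cut the receptor, and the freed intracellular part enters the nucleus, where it joins the DNA-binding protein RBPJ and a Mastermind coactivator. The best known direct targets are genes of the HES and HEY repressors. SOX2, an HMG-box factor, and KLF4, a zinc finger factor, are known for reprogramming somatic cells to pluripotency. SOX2 and KLF5, a zinc finger factor related to KLF4, also act in the airway epithelium and in lung cancers.

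All 10 genes were listed at a higher level in AS than in SC, both in the deposited TPM (an abundance that accounts for transcript length) and in the deposited coverage (mean read depth over the transcript), although JAG2 and NOTCH1 turned to log2 ratios under 0 after centring on the median of all genes or trimmed mean scaling, and HEY1 after centring on genes of like GC content. The levels were low. The highest TPM of the set was 12.0 in AS, for HES1, and 7.45 in SC, for JAG2. HES1, SOX2, KLF5 and JAG1 were at least 2-fold higher on the scale log2((AS + 1)/(SC + 1)), which understates ratios between low values. No gene of the set was 2-fold lower. Genes with an average of 1 TPM or more across AS and SC are called measured. NOTCH1 and HEY1 were under that level, and the other 8 genes were above it. For NOTCH2, SOX2 and KLF5 the level in SC was under 1 TPM, so that these 3 genes passed through their level in AS.

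Of the 8 measured genes, 4 reached a 2-fold higher level in AS, against 16.5% of all 13669 measured genes, and none was 2-fold lower, against 2.17%. Among these 4, SOX2 and KLF5 counted as measured only through their level in AS. Of the 5 genes with at least 1 TPM in both libraries, only HES1 and JAG1 passed. The set was also chosen with earlier results of these data known. The median log2 ratio of the 8 genes was 0.95, against 0.28 for all measured genes. A median above 0 over all genes means that ratios are best read relative to it. After that median was subtracted, 9.17% of all measured genes lay past 2-fold on the higher side and 5.09% on the lower side, and of the 8 genes only KLF5 (1.09) was past 2-fold, just ahead of HES1 (0.98) and SOX2 (0.92). JAG1 then stood at 0.72, KLF4 at 0.61, NOTCH2 at 0.55 and NOTCH3 at 0.01, whereas JAG2 turned to -0.09. In coverage put on the TPM scale, 3 of the 8 genes were at least 2-fold higher (HES1, SOX2 and JAG1), against 9.47% of all measured genes, and none was 2-fold lower, against 0.863%. The same 3 genes passed in both columns, against 8.94% of all measured genes. The 2 columns are not independent, because coverage on the TPM scale can simply repeat the TPM. It nearly did so for SOX2 (1.20 in both) and JAG1 (1.00 in both), whereas HES1 had 1.27 in TPM and 1.21 in coverage.

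**Figure D1:**
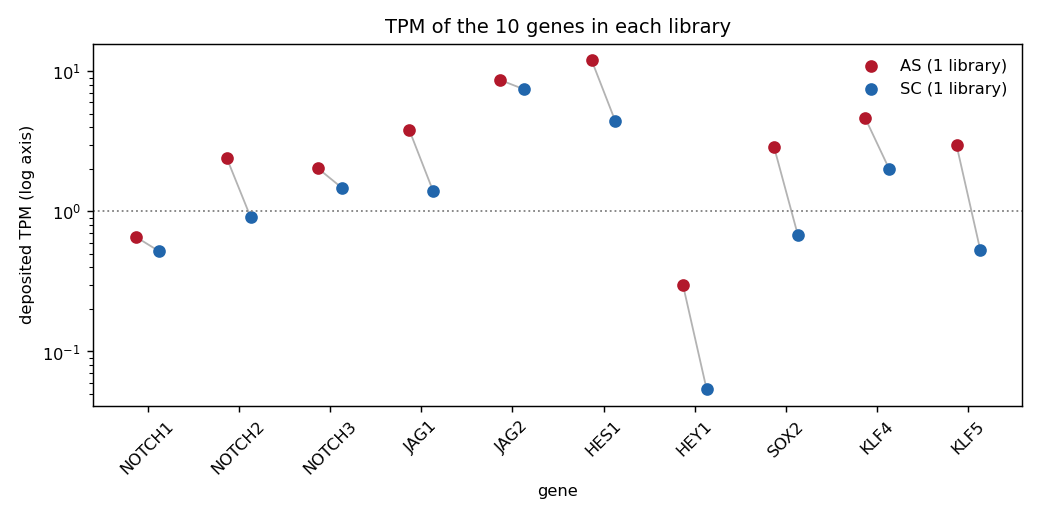
Deposited TPM on a log axis of the 10 genes in the AS library (red, left) and the SC library (blue, right), 1 point per library, joined by a line for each gene, with a dotted line at 1 TPM. Each AS point lies above its SC point in the deposited TPM, with no centring (JAG2, NOTCH1 and HEY1 turn under some of it), with small steps for NOTCH1, NOTCH3 and JAG2, and HEY1 lies lowest in both libraries. Of all measured genes, 66.2% were higher in AS.

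The microRNA named in the treatment is known to recognise its targets through its seed, bases 2 to 8 from the 5′ end, shown in capitals in the mature sequence (RefSeq, GRCh38.p14, chromosome 14, 101029681 to 101029702, plus strand):
hsa-miR-494-3p: uGAAACAUacacgggaaaccuc
Matches to the seed were searched in the longest 3' UTR that GENCODE 29 gives for each gene, either with 8 bases (ATGTTTCA) or with 7 bases (TGTTTCA or ATGTTTC). A site was found in 2 of the 10 genes, both of them receptors, and in 27.7% of the 10575 measured coding genes with an annotated 3' UTR. NOTCH1 held 1 site at bases 725 to 731 of a UTR of 1638 bases, and NOTCH2 held 1 at bases 3312 to 3318 of a UTR of 3892 bases, the longest of the set. The sites are shown in capitals with their surrounding bases, because they are the seed matches that these 10 genes carry:
NOTCH1: tcatgaatcttTGTTTCAggttcagtatt
NOTCH2: cacagaaagaaATGTTTCttcacagaggg
The 4 genes that were at least 2-fold higher (HES1, SOX2, KLF5 and JAG1) had none of these letters in UTRs of 499, 1122, 1656 and 1814 bases. A match of letters is a description of the sequence and not evidence of binding.

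Among the receptors of the set NOTCH2 had the largest ratio in TPM and in coverage. Relative to the median of genes of like GC content NOTCH2 came last, at 0.39, after NOTCH3 (0.58) and NOTCH1 (0.42). NOTCH2 (ENSG00000134250, chromosome 1, 120454176 to 120612240, minus strand, GRCh37) stood at 2.40 TPM in AS and 0.912 TPM in SC, a ratio of 2.63 and a log2 ratio of 0.83. Its coverage was 3.34 reads deep in AS and 1.60 in SC, a ratio of 2.09. NOTCH2 therefore lay under the 2-fold line with 1 added to TPM and past 2-fold in the plain ratio of either column. Part of its sequence is repeated in NOTCH2NL, a gene copied from the 5′ end of NOTCH2, and reads of the shared exons cannot be assigned to either with confidence. NOTCH2NL was listed at 29.8 TPM in AS and 23.6 TPM in SC, with a coverage of only 3.11 and 2.72. The loci that the authors' program assembled from the reads along NOTCH2 numbered 7 in AS and 6 in SC. The one at its 5′ end, starting at 120547856, stood at 5.82 TPM in AS and 3.67 TPM in SC, a smaller step than that of the whole gene.

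NOTCH3 and NOTCH1 differed little between the libraries. NOTCH3 (ENSG00000074181, chromosome 19, 15270444 to 15311792, minus strand) stood at 2.03 TPM in AS and 1.48 TPM in SC (log2 ratio 0.29), with a coverage of 3.00 in AS and 2.64 in SC. NOTCH1 (ENSG00000148400, chromosome 9, 139388896 to 139440314, minus strand) was at 0.659 TPM in AS and 0.518 TPM in SC, and its coverage was near 1 read in both, at 1.10 in AS and 0.951 in SC. The ratio of NOTCH1 was 1.27, and the assembly held it as 5 separate loci in AS and 7 in SC. The fourth receptor, NOTCH4, was not measured either (0.470 TPM in AS, 0.668 TPM in SC). NOTCH2 was the highest of the receptors NOTCH1 to NOTCH3 in AS, and NOTCH3 was in SC.

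The ligands parted in the deposited TPM, with log2 ratios of 1.00 for JAG1 and 0.19 for JAG2. Relative to the median of genes of like GC content they were close, at 0.56 for JAG1 and 0.48 for JAG2. JAG1 (ENSG00000101384, chromosome 20, 10618332 to 10654694, minus strand) stood at 3.82 TPM in AS and 1.40 TPM in SC. JAG1 thus had a ratio of 2.72, and its log2 ratio of 1.00 lay on the 2-fold line. Its coverage was 6.36 in AS and 2.58 in SC, a ratio of 2.47. The JAG1 value is the sum of 2 rows, and the second (ENSG00000270408, 10625847 to 10627014) lies inside the first on the same strand, so their reads cannot be told apart. The first row alone had 2.36 TPM in AS and 0.948 TPM in SC, a log2 ratio of 0.78, and the second 1.46 TPM in AS and 0.456 TPM in SC, a ratio of 3.20. Either row was higher in AS, but with 1 added to TPM the 2-fold line was reached only by their sum. JAG2 (ENSG00000184916, chromosome 14, 105607318 to 105635161, minus strand) was the more abundant ligand in both libraries, at 8.66 TPM in AS and 7.45 TPM in SC, and its ratio of 1.16 was the smallest of the set. JAG2 coverage was 13.1 in AS and 12.2 in SC, so this small step rests on the deepest coverage of the set in SC. RP11-44N21.4, a gene of the same strand that overlaps JAG2, stood at 14.0 TPM in AS and 15.5 TPM in SC.

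The Delta-like ligands DLL1 and DLL4 were at or under 0.196 TPM in both libraries. Of 10 further receptors and ligands, 2 were measured and both had log2 ratios under 0 and under the median of all genes. DLL3, a ligand that inhibits Notch in the same cell, stood at 2.17 TPM in AS and 2.90 TPM in SC (-0.30). DLK2, a Delta-like protein outside the canonical ligands, stood at 25.6 TPM in AS and 37.6 TPM in SC (-0.54), which makes it more abundant than JAG1 and JAG2 in both libraries.

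The repressor HES1, the classic Notch target (ENSG00000114315, chromosome 3, 193853934 to 193856521, plus strand), stood at 12.0 TPM in AS and 4.40 TPM in SC, a ratio of 2.72 and a log2 ratio of 1.27. Its coverage was 15.1 in AS and 6.16 in SC, a ratio of 2.45, the deepest of the set in AS. Its single assembled locus had the same TPM as the annotated gene in both libraries. HES1 was the only gene of the set past 2-fold that had more than 4 TPM in each library. It was the most abundant of the 10 genes in AS and came after JAG2 in SC.

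The promoter of HES1 is shown because it carries the only RBPJ motif among the promoters of these genes. RefSeq gave promoters of 250 bases before to 50 bases after the start for 9 of the 10 genes, 2 of them for KLF5. They were searched on both strands for the RBPJ motif GTGGGAA, the class C motif of HES repressors CACGNG and the KLF motif GGGTGTG. In HES1 (GRCh38.p14, chr3:194135898-194136197, plus strand) the RBPJ motif, in capitals, begins at base -85 from the start:
HES1: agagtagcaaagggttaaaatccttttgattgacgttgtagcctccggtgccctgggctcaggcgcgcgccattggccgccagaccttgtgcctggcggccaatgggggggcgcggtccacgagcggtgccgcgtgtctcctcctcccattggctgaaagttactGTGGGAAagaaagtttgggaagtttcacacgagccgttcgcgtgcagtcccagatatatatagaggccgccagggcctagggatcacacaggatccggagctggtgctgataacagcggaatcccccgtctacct
Of all 35116 promoters in the table, 6.25% held the RBPJ motif, 30.5% the class C motif and 7.56% the KLF motif. HES1 also had 4 class C matches, counted over both strands, and NOTCH2, NOTCH3, JAG1, JAG2, KLF4 and KLF5 had 1 or 2. The KLF motif was found once each in NOTCH2 and NOTCH3. The SOX2 promoter (chr3:181711675-181711974, plus strand), shown for contrast as that of another gene past 2-fold, held none of the 3 motifs:
SOX2: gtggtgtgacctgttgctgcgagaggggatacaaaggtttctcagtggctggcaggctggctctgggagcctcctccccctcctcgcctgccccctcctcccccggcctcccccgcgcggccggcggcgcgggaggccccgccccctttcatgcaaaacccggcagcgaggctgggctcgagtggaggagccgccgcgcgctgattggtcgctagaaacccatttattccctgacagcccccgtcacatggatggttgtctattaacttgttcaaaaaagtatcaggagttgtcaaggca

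HEY1, a repressor related to HES1 (ENSG00000164683, chromosome 8, 80676245 to 80680098, minus strand), was at 0.30 TPM in AS and 0.0538 TPM in SC. Its coverage was 0.275 in AS and 0.0987 in SC, less than 1 read per base in either library. Of 15 measured genes in the list of other HES and HEY repressors and Notch targets, all lay within 2-fold, and their median log2 ratio of 0.24 was 0.05 under that of all genes. NRARP, a feedback inhibitor of Notch, stood at 2.01 TPM in AS and 1.08 TPM in SC (0.54). CCND1, the cyclin D1 gene, stood at 68.3 TPM in AS and 37.9 TPM in SC (0.83), and the ID genes, whose products block bHLH factors, had log2 ratios of 0.48 (ID2), 0.43 (ID4), 0.40 (ID3) and -0.10 (ID1). HES5 and HES3 were listed at 0 in both libraries.

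SOX2 (ENSG00000181449, chromosome 3, 181429714 to 181432221, plus strand) stood at 2.87 TPM in AS and 0.681 TPM in SC, a ratio of 4.22 and a log2 ratio of 1.20. SOX2 has 1 exon, so its depth can be read directly. The coverage of 4.77 in AS and 1.24 in SC over 2508 bases corresponds to 11966 aligned bases in AS and 3121 in SC. The most common number of aligned bases in sparsely covered genes of 1 exon was 150 in both libraries, which is taken here as the read length, and the SOX2 value then rests on about 79.8 reads in AS and 20.8 reads in SC. Reads of 1 fragment are not independent, so no interval was computed. SOX2-OT, a noncoding gene that spans SOX2 on the same strand, was at 0.0594 TPM in AS and 0.0149 TPM in SC, far under SOX2.

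KLF5 (ENSG00000102554, chromosome 13, 73629114 to 73651676, plus strand) had the largest log2 ratio of the measured genes of the set, 1.38, with 2.98 TPM in AS and 0.532 TPM in SC, a ratio of 5.59. The coverage column gave less than that. It was 2.63 in AS and 0.976 in SC, a ratio of 2.70, and once put on the TPM scale its log2 ratio was 0.75, so KLF5 was not past 2-fold there. KLF4 (ENSG00000136826, chromosome 9, 110247133 to 110252763, minus strand) stood at 4.62 TPM in AS and 2.02 TPM in SC, a ratio of 2.29 and a log2 ratio of 0.90. Its coverage of 5.89 in AS and 2.57 in SC gave the same ratio, 2.29. KLF4 and NOTCH2 were the genes just outside the 2-fold line, and JAG1 the one just inside it.

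**Figure D2:**
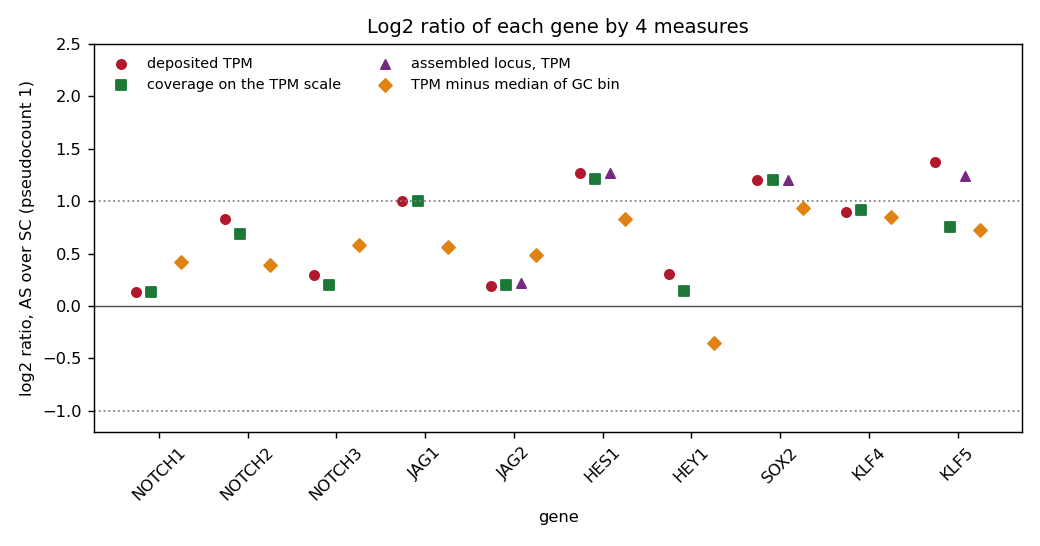
Log2 ratio of AS over SC with 1 added, for each of the 10 genes, from the deposited TPM, the coverage on the TPM scale, the assembled locus (drawn for the 4 genes with 1 such locus in each library, JAG2, HES1, SOX2 and KLF5), and the TPM ratio minus the median of coding genes of the same GC bin, with dotted lines at 2-fold. HES1 and SOX2 lie above the upper line in the first 3 measures, but these are not separate evidence. Their assembled locus has the same TPM as the gene, and for SOX2 coverage nearly repeats the TPM as well (1.20 in both). KLF5 is at 0.75 in coverage, and no gene is above the line in the last measure.

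The log2 ratios of all genes moved with the GC content of the transcript. Measured coding genes were split by GC content into 10 bins of about equal size. In the bin that holds HES1, JAG1 and NOTCH2 (47.5% to 50.7% GC), the median log2 ratio was 0.44 and 15.5% of genes passed 2-fold on the higher side. In the bin of NOTCH1, NOTCH3 and JAG2 (62.9% to 74.2%), the median was -0.29 and 0.751% of genes passed it. SOX2 lay in a bin with a median of 0.27, KLF4 in one with 0.05, and KLF5 and HEY1 in one with 0.66. Relative to the median of their own bin, the 8 measured genes were all higher, by 0.94 for SOX2, 0.85 for KLF4, 0.83 for HES1, 0.72 for KLF5, 0.58 for NOTCH3, 0.56 for JAG1, 0.48 for JAG2 and 0.39 for NOTCH2. No gene of the set was past 2-fold on that scale, on which 4.73% of 10648 coding genes were at least 2-fold higher and 3.07% lower. Whether GC content has a part in the ratios of these genes was not tested.

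**Figure D3:**
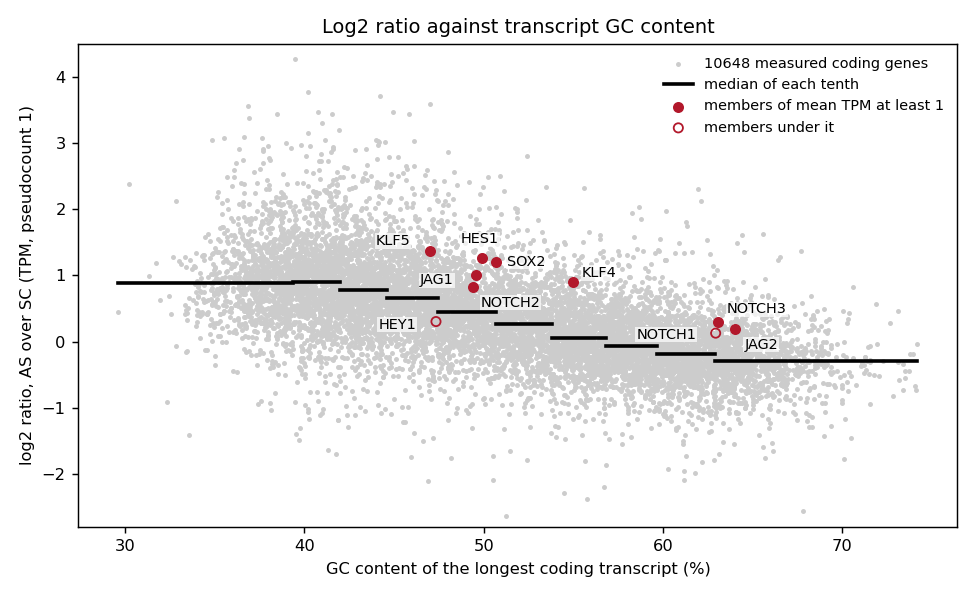
Log2 ratio of AS over SC (TPM with 1 added) against the GC content in percent of the longest coding transcript, with 10648 measured coding genes in grey, the median of each GC bin as a black bar, and the 10 genes in red (open where mean TPM was under 1). The black bars descend toward high GC content, 9 of the 10 red points lie above the bar of their bin, and HEY1 lies below its bar.

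Genes that build and run the pathway were on the whole close to the rest of the transcriptome. In 7 lists of Notch pathway genes other than the 10, 66 genes were measured, of which 7 were at least 2-fold higher (10.6%, against 16.5% of all genes) and 1 was lower. Their median log2 ratio was 0.22, against 0.28 for all genes.

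The list of Notch glycosylation enzymes, which add sugars to the extracellular part of the receptor, had the most. Of 8 measured members 3 were at least 2-fold higher (16.5% of all genes were) and none was lower, with 1 of 8 past 2-fold after GC centring, and the median was 0.41 above that of all genes. POGLUT1, which adds glucose to Notch, stood at 4.42 TPM in AS and 0.562 TPM in SC (log2 ratio 1.80), MFNG, the Manic Fringe enzyme, at 6.28 TPM in AS and 1.47 TPM in SC (1.56), and GXYLT1, which extends the glucose with xylose, at 2.40 TPM in AS and 0.672 TPM in SC (1.03). In coverage on the TPM scale MFNG was at 0.95 and the other two stayed past 2-fold (1.09 and 1.03). POGLUT1 and GXYLT1 were under 1 TPM in SC, so that both counted as measured through their level in AS. EOGT was at 0.80.

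Genes of Notch cleavage had log2 ratios on either side of 0. Of 8 measured members of the list, 1 was at least 2-fold higher (16.5% of all genes were), 1 was lower (2.17%) and 6 lay within 2-fold. After GC centring 0 of 8 were at least 2-fold higher. The median was 0.57 under that of all genes. ADAM17, one of the proteases that can cut the bound receptor, stood at 10.8 TPM in AS and 2.52 TPM in SC (1.74, and 1.38 in coverage). Relative to the median of its GC bin ADAM17 was at 0.97. ADAM10, another such protease, was not measured (0.650 TPM in AS, 0.420 TPM in SC). FURIN, which cuts the receptor during its maturation, stood at 52.8 TPM in AS and 79.1 TPM in SC (-0.58). APH1B, a subunit of gamma-secretase, stood at 6.0 TPM in AS and 16.1 TPM in SC (-1.29). For APH1B the log2 ratio in coverage was -0.31, so APH1B was not past 2-fold in that column. Relative to the median of its GC bin APH1B was at -2.06.

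Genes of receptor endocytosis and turnover had 1 of 12 measured members at least 2-fold higher (16.5% of all genes were) and none lower (2.17%). Their median was 0.14 under that of all genes. That member was DTX4, of the Deltex ubiquitin ligases, with 2.84 TPM in AS and 0.331 TPM in SC (1.53), which was at 0.38 in coverage. DTX4 counted as measured through its level in AS. NUMB, an inhibitor of Notch, stood at 20.0 TPM in AS and 10.9 TPM in SC (0.82), DTX3L was at 0.85 and DTX3 at -0.80.

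In the nuclear complex none of 7 measured genes was past 2-fold in either direction (16.5% of all genes were higher and 2.17% lower). However, 5 of them were above the median of all genes and the list median was 0.49 above it. SNW1, a cofactor of the complex, was at 131.6 TPM in AS and 65.8 TPM in SC (0.99), the acetyltransferases EP300 and CREBBP had log2 ratios of 0.98 and 0.91, and the coactivator MAML1 was at 5.12 TPM in AS and 2.57 TPM in SC (0.78). RBPJ itself, the DNA-binding subunit, stood at 7.92 TPM in AS and 7.41 TPM in SC (0.08). RBPJ falls outside the rule for named genes and was chosen after its values were seen. Of 15 measured genes of the RBPJ corepressor complex, 2 passed 2-fold, both higher in AS, where 16.5% of all measured genes did. The list median was 0.02 under that of all genes. The 2 genes do not set the complex apart from all genes. They were SPEN, the corepressor that binds RBPJ directly (8.06 TPM in AS, 1.87 TPM in SC, 1.66), and the deacetylase HDAC2 (20.6 TPM in AS, 7.84 TPM in SC, 1.29). Both were also past 2-fold in coverage (1.03 and 1.17). Relative to the median of their GC bin, SPEN was at 1.39 and HDAC2 at 0.40. NCOR1 was at 0.98 and TLE1, a Groucho-type corepressor, at 0.71.

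**Figure D4:**
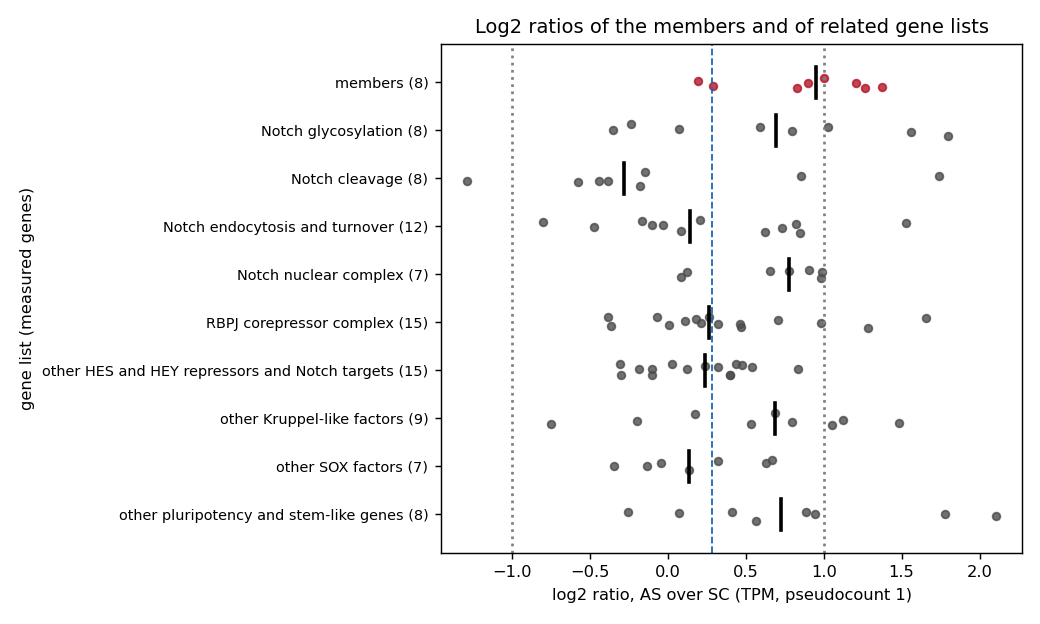
Log2 ratio of AS over SC (TPM with 1 added) of each measured gene (points) in the set described here (red, 8 genes) and in related lists (grey), with the list median as a black bar, the median of all measured genes (0.28) as a blue dashed line and 2-fold as dotted lines. The glycosylation, nuclear complex, Kruppel-like and pluripotency lists have medians right of the blue line. The other related lists have medians left of it, the cleavage list farthest.

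The Kruppel-like factors other than KLF4 and KLF5 held further genes past 2-fold in TPM. Among 9 that were measured, 3 passed 2-fold on the higher side, as did 16.5% of all genes, and none on the lower side. After centring on the median of all genes 1 of 9 passed, and after centring on the GC bin 0 of 8. Their median lay 0.40 over the value for all genes, and their median GC content was 47.0%, in a bin where 25.6% of genes passed. KLF10, known as a gene induced by TGF-beta, stood at 4.85 TPM in AS and 1.09 TPM in SC (1.49), KLF6 at 14.1 TPM in AS and 5.91 TPM in SC (1.13) and KLF3 at 5.90 TPM in AS and 2.32 TPM in SC (1.05). In coverage KLF10 (1.19) and KLF6 (1.05) were past 2-fold and KLF3 (0.85) was not. KLF16, the most abundant of the family at 49.1 TPM in AS and 56.6 TPM in SC, had a log2 ratio of -0.20, and KLF13 stood at 15.3 TPM in AS and 9.12 TPM in SC (0.69). KLF11 was at 0.79.

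Among 7 other SOX genes that were measured none was past 2-fold (16.5% of all genes were higher and 2.17% lower). Their median lay 0.15 under the value for all genes, and their median GC content was 61.7%. SOX15, the most abundant, stood at 83.9 TPM in AS and 92.1 TPM in SC (-0.13) and SOX12 at 43.0 TPM in AS and 39.0 TPM in SC (0.14), levels far above that of SOX2. SOX7 was at 0.67, SOX9, a factor of distal lung progenitors, at 0.63, SOX4 at 0.32 and SOX3 at -0.34.

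Most pluripotency and stem-like genes outside the set were silent or within 2-fold. Of 21 listed genes 8 were listed at 0 in both libraries, among them NANOG, PROM1 and LGR5, and 8 were measured. The measured genes ranged from 1.11 to 59.2 TPM in AS and from 1.40 to 44.4 TPM in SC. Of these, 2 passed 2-fold, both higher in AS, where 16.5% of all genes did and 25.6% of those in the GC bin that holds the median GC content of the list. Both encode Polycomb proteins, BMI1 (11.1 TPM in AS, 1.80 TPM in SC, log2 ratio 2.11) and EZH2 (15.1 TPM in AS, 3.70 TPM in SC, 1.78). In coverage BMI1 (1.19) and EZH2 (1.27) were past 2-fold too. After centring on the GC bin, 3 of 8 were at least 2-fold higher (BMI1, EZH2 and TERT) and 1 was lower. On that scale 4.73% of coding genes were higher and 3.07% lower. TERT, the telomerase catalytic subunit, stood at 4.45 TPM in AS and 1.84 TPM in SC (0.94), and LGR4 was at 0.89. Of 10 genes of the squamous and airway basal programme in which SOX2 and KLF5 are known to act, 6 were listed at 0 in both libraries, TP63 and KRT5 among them, and S100A2 alone was measured (4.17 TPM in AS, 3.74 TPM in SC, 0.13).

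The labelled cell type could be checked in part. The keratins KRT18 (479 TPM in AS, 558 TPM in SC) and KRT8 (345 TPM in AS, 486 TPM in SC) were high, and KRT7 (55.2 TPM in AS, 67.9 TPM in SC), EPCAM (1.84 TPM in AS, 0.604 TPM in SC) and NAPSA (1.04 TPM in AS, 1.62 TPM in SC) were measured, whereas the epithelial cadherin CDH1 and the lung lineage gene NKX2-1 were under 0.04 TPM in both libraries, and KRT19, SFTPC and CEACAM6 were listed at 0. Of 18 markers of other cell types, 4 were measured, COL1A1, SYP, CD14 and ACTA2, at 2.13 to 15.8 TPM in AS and 3.41 to 26.3 TPM in SC, and PTPRC, CD3E, COL1A2 and HBB were among those listed at 0 in both. The summed level of that list was 30.4 TPM in AS and 47.3 TPM in SC.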

How the data were processed

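Per the file headers, the authors deposited coverage, TPM and FPKM for each library. The deposited TPM is handled as a score, because annotated genes (973681 in SC) and assembled loci (1000000) share 1 column. Coverage per unit of FPKM was 3.54 in AS and 3.62 in SC, so the libraries were of similar depth. The submitters' processing notes, with the aligner not given in the sources used here, name GRCh38 and hg38, but on chromosome 1 rows reach 249232967, past the last gene of GRCh38 in GENCODE 29 (248937043), and gene coordinates are those of GRCh37. Per the labels' protocols the kit was directional, but the strand setting of the counting is not stated.

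The measure was log2((AS + 1)/(SC + 1)) on TPM. Coverage was divided by coverage per FPKM and multiplied by TPM per FPKM of its library. GC content is that of the longest coding transcript in GENCODE 29, by gene identifier. The 10 genes and the lists were chosen with earlier results of these data known. All 10 genes are named, with, in each list, the 4 measured genes of largest absolute ratio and, for receptors and ligands, HES and HEY, KLF and SOX genes, the 2 most abundant. Genes given at 0 or as absent markers, NOTCH4, DLL1 and DLL4, ADAM10, SOX2-OT and RP11-44N21.4 were added for context, and the NOTCH2 relative NOTCH2NL is named. Some genes of the lists are not reported here. Python 3.11.15 and pandas 2.3.3 were used, and the calculations were tested on simulated libraries. Alternatives were other pseudocounts, filters, scalings, columns and rows.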

Additional observations from a re-analysis of the deposited data

How the results depend on the processing

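No paired analysis was possible because there was 1 library in each group and no test, and no replicate could be left out. The count of the 10 genes at least 2-fold higher in AS was 4. It was 0 with a pseudocount of 5 and 0 after centring on the GC bin, and 1 in FPKM (4 genes measured), after centring on the median of all genes, after trimmed mean scaling (a shift of 0.35) and with a minimum mean of 5 TPM (2 genes measured). None was 2-fold lower under any alternative. After centring on the median and after trimmed mean scaling, JAG2 had log2 ratios of -0.09 and -0.12 and NOTCH1 of -0.15 and -0.0011, and HEY1 had -0.35 after GC centring. The JAG1 ratio ranged from 0.46 to 1.38, without the assembled locus, and that of SOX2 from 0.47 to 1.93, the upper ends at a pseudocount of 0.1, where KLF4 (1.15) and NOTCH2 (1.30) were past 2-fold too.

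Among all 13669 measured genes, 2251 were at least 2-fold higher. The count was 3149 and 727 with pseudocounts of 0.1 and 5, and 1294 in coverage. It was 1253 after median centring and 1196 after trimmed mean scaling. Other alternatives held other numbers of genes. They gave 1188 of 11585 in FPKM, 504 of 10648 after GC centring and 1268 of 8968 at a minimum of 5 TPM. Without a filter it was 2446 of 55773, and in the assembled loci 2929 of 17715. The 2-fold lower genes numbered 297, against 501 and 70 with pseudocounts of 0.1 and 5, 118 in coverage, and 696 and 703 after median centring and trimmed mean scaling. They numbered 137 of 8968 at a minimum of 5 TPM and 603 of 17715 in the assembled loci, which can be different stretches of a gene in each library. Of the 66 pathway genes, 7 were higher and 1 lower. Higher ones numbered 13 and 1 with pseudocounts of 0.1 and 5, 3 after GC centring and 2 of 45 at a minimum of 5 TPM. Lower ones numbered 0 with a pseudocount of 5 and in coverage, and 2 after either rescaling. The causes were not tested. Coverage under 5 in at least 1 library limits the ratios of every gene of the set but JAG2 and HES1.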
